A study of Mus musculus with 7 samples.

Results

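Mesenchymal neural crest cells of Tbx1 null embryos were compared with those of control embryos at E10.5. Cells were chosen from 4 libraries by their UMI counts: at least 1000 genes, at most 10% mitochondrial UMIs, at least 3 UMIs of Twist1, Prrx1 and Prrx2 together and 0 UMIs of Sox10. This gave 14977 of the 39401 barcodes of these libraries, of which 33369 had passed the filters on genes and mitochondrial UMIs, and of 65862 barcodes in all 7 libraries of the series. There were 3419 and 7136 such cells in the control libraries (10555 together) and 2828 and 1594 in the null libraries (4422 together). The levels of Twist1, Prrx1, Prrx2 and Sox10 made the selection and are given as a description only. At the threshold, 179, 260, 192 and 183 chosen cells had exactly 3 UMIs of the mesenchymal genes, and 285, 295, 406 and 461 cells with 2 such UMIs stayed outside.

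The pharyngeal arches are filled by mesenchyme that the neural crest supplies. Hox genes mark its position along the head-to-tail axis, with Hoxa2 on from the second arch backwards and the group 3 genes from the third arch backwards, while Dlx, Hand2 and Gsc mark its ventral and distal parts. This mesenchyme makes the smooth muscle of the arch arteries, the septum of the outflow tract, and skeleton and connective tissue. Tbx1, a T-box factor deleted in the human 22q11.2 deletion syndrome, is known to act mainly in the mesoderm, endoderm and ectoderm next to these cells, which send signals to the crest.

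All 4 libraries came from mice labelled Swiss-Webster, a mixed background in the study's methods, that carried Wnt1-Cre and a Cre-dependent ROSA-EGFP allele, and held sorted EGFP-positive, DAPI-negative cells. Wnt1-Cre acts in the dorsal neural tube as well as in the crest that leaves it, so neural cells pass the same sort. Control embryos had Wnt1-Cre/+ and ROSA-EGFPf/+ with no Tbx1 allele named. The null samples are called Tbx1null in their titles and homozygous null in the study's methods, but their genotype label reads Tbx1+/-, and the deleted stretch of the gene is not given in the sources used here. Each library was a pool of a few embryos that were not sexed. The labels give arches 2 to 6 with the heart for the controls and the tissue below the first arch with the heart for the nulls. The 10x kit was version 3.1 in both controls and in null replicate 2, and version 3 in null replicate 1. The study's methods give null replicate 1 slightly fewer somites than the others. Nothing ties replicate 1 of a genotype to replicate 1 of the other, and with 2 libraries a genotype the p-values measure the spread between these pools.

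Tbx1, the targeted gene, was low in the chosen cells of both genotypes. It reached 8.92 and 5.86 CPM in the controls and 7.02 and 7.39 CPM in the nulls, a log2 difference of -0.035 (SE 0.28) with an adjusted p of 0.966 (edgeR). Over all kept cells the levels were 5.79 and 4.58 CPM in the controls and 2.91 and 2.92 CPM in the nulls. Since the deleted part is not known here, reads from the rest of the gene cannot check the genotype. Of the 134 genes tested within 5 Mb of Tbx1 on chromosome 16, 0 passed an adjusted p of 0.05 (edgeR), as did 0.0689% of all genes tested. At so low a share a count of 0 says nothing about the region. Both null libraries lay above both controls in 23.1% of these 134 genes and below them in 16.4%, against 22.0% and 24.9% of all genes tested.

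The libraries differed in ways that bear on every result. Mesenchymal UMIs per library ran from 39293125 to 131375688, and median UMIs per cell from 17072 to 25320. Null replicate 2 stood apart: Tubb3, a neuronal tubulin, was found after thinning in 13.0% and 8.47% of the control cells and 15.4% and 48.0% of the null cells. All 10 neural progenitor markers, Sox2 and Pax3 among them, had both null libraries above both controls, as did 22.0% of all genes tested, with summed levels of 271, 102, 369 and 505 CPM in the order control 1, control 2, null 1 and null 2, and of 10 neuron markers 5 did, with 196, 100.0, 191 and 670.5 CPM. Cells with more than 1 UMI of 8 neural markers made up 13.9%, 4.26%, 26.2% and 47.9% of the chosen cells. The main results were therefore repeated in neural-depleted cells, without those cells and without any with a UMI of Stmn2, Elavl3 or Elavl4, an alternative chosen after seeing the data that left 2549, 6059, 1787 and 289 cells. These cells still held neural RNA, most in null replicate 2. In the same order, progenitor markers summed to 61.7, 62.1, 58.4 and 108 CPM there and neuron markers to 23.0, 17.85, 19.5 and 104 CPM. Of the 10 progenitor markers 7 still had both null libraries above both controls, so this alternative lessens neural RNA and does not remove it. Y-linked transcripts were at 0 in null replicate 2 alone, so the libraries differ in sex make-up as well. Both nulls stood apart from both controls here. The Y-linked Ddx3y had 26.7 and 24.2 CPM in the controls and 11.8 and 0 CPM in the nulls. Xist, the RNA of X inactivation, had 267 and 406 CPM in the controls and 500 and 687 CPM in the nulls. Sex make-up thus differed along with genotype, and its part in the results, the X-linked Pcdh19 and Mid1 included, was not tested. Pairs of the E10.5 libraries shared 17 to 39 cell barcodes, at most 0.410% of the smaller library.

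**Figure D1:**
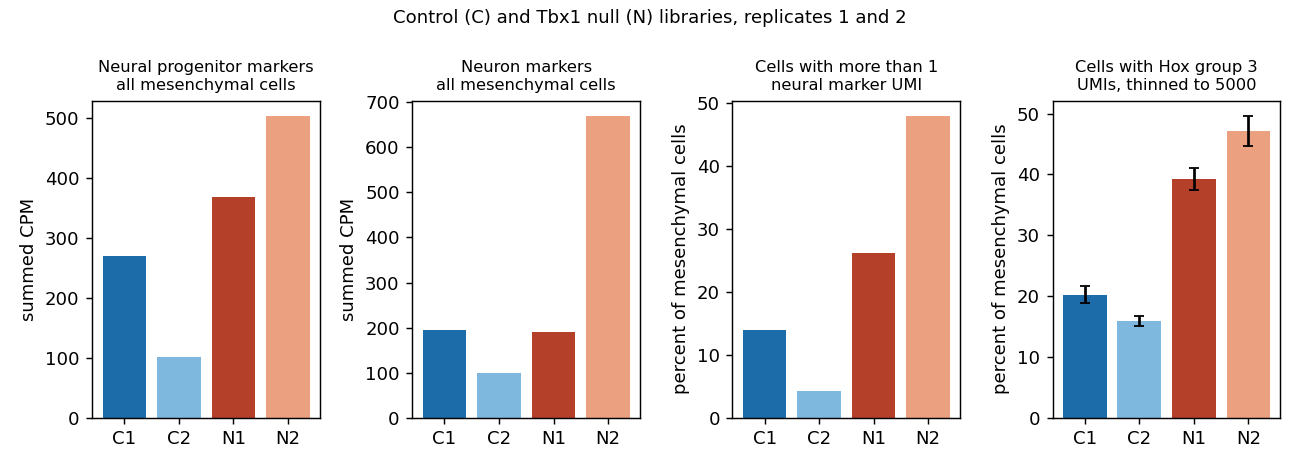
Neural RNA and Hox group 3 cells in the 4 libraries. Bars give the summed level of 10 neural progenitor markers and of 10 neuron markers (CPM), the percent of chosen cells with more than 1 UMI of 8 neural markers, and the percent with a UMI of Hoxa3, Hoxb3 or Hoxd3 after thinning to 5000 UMIs (error bars: 95% Clopper-Pearson interval). Null replicate 2 is highest in every panel, with 670.5 CPM of neuron markers, and control replicate 2 is lowest.

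The chosen cells carried mesenchymal genes that the selection did not use. Twist2, a relative of Twist1, reached 110.1 and 113 CPM in the controls and 72.6 and 51.7 CPM in the nulls. Pdgfra, a growth factor receptor of mesenchyme, reached 67.8 and 85.5 CPM in the controls and 60.1 and 57.8 CPM in the nulls, and its log2 difference was 0.012 in neural-depleted cells. In cells chosen as neural (at least 3 Sox2 UMIs and none of the mesenchymal genes) their mean levels were 1.16 and 0.963 CPM. Tcf4, also on the list of mesenchymal markers, does not set the chosen cells apart, with a mean of 241 CPM in neural cells. The share of kept cells that were mesenchymal was 46.5% and 69.6% in the controls and 32.1% and 23.0% in the nulls. The groups do not overlap, but with 2 libraries against 2 the smallest two-sided permutation p is 0.333. Neural cells numbered 1616 and 586 in the controls and 2260 and 1638 in the nulls, and the part of dissection in these shares was not tested. With a gate of 1 UMI it was 59.0% and 76.4% in the controls and 47.5% and 46.5% in the nulls, again without overlap.

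Few genes separated the genotypes beyond the spread between libraries. Of 15976 genes tested, 11 passed an adjusted p of 0.05 in edgeR's quasi-likelihood test with Benjamini-Hochberg adjustment, which is 0.0689% of them. Of these, 10 were lower in null mesenchyme and 1, Gpx3, was higher. The transcription factor gene Emx2 fell together with 2 transcripts near it on chromosome 19, and so did Enpp2, Smoc1 and Pcdh19, which act at the cell surface or outside the cell. 3110099E03Rik, on chromosome 2, fell most. At an unadjusted p under 0.05 there were 1956 genes, 1109 higher and 847 lower, and the median log2 difference over all genes was -0.012.

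Emx2, a homeobox factor known for its part in forebrain, urogenital and shoulder girdle development, was nearly absent from null mesenchyme. Emx2 (ENSMUSG00000043969; chromosome 19, 59458372 to 59465357, plus strand; coordinates here and below are GRCm38, GENCODE vM21) reached 32.5 and 50.5 CPM in the controls and 0.347 and 0.493 CPM in the nulls. These are 2672 and 6129 UMIs against 26 and 22. Both null libraries lay far below both controls, with a log2 difference of -6.65 (SE 0.37) and an adjusted p of 0.00142 (edgeR). In neural-depleted cells the levels were 32.1 and 45.5 CPM against 0.379 and 0.157 CPM, a log2 difference of -6.82, so the fall was as large without the neural-rich cells. After each cell was thinned to 5000 UMIs, Emx2 was seen in 10.0% and 13.8% of the control cells and 0.178% and 0.126% of the null cells. The 95% Clopper-Pearson intervals, which cover counting error only, were 9.02 to 11.1% and 13.0 to 14.7% against 0.0578 to 0.415% and 0.0153 to 0.454%. Neural cells, which should lack arch genes, gave 0%, 0%, 0% and 0.0620% after the same thinning, in the order control 1, control 2, null 1 and null 2, and the counts of 0 allow shares of up to 0.189%, 0.526% and 0.134%. Without thinning the shares were 21.1%, 24.6%, 0.707% and 0.878% in mesenchyme and 0.248%, 0.512%, 0% and 0.0611% in neural cells, the latter at median depths of 16580, 11293, 16916 and 16096 UMIs. In bulk sums fewer cells of a type and less RNA per cell cannot be told apart, and here the share of positive cells fell with the sum.

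The start of Emx2 is shown because this gene was all but lost from the null libraries. The window runs from 250 bases before to 50 after the RefSeq start (GRCm38.p6, chr19:59458440-59458739, plus strand), 5′ to 3′, and capitals mark TAATTA, a core that many homeodomain factors bind. Gpx3 (chr11:54902604-54902903, plus strand) is set beside it as the gene that rose, and has no capitals.
Emx2: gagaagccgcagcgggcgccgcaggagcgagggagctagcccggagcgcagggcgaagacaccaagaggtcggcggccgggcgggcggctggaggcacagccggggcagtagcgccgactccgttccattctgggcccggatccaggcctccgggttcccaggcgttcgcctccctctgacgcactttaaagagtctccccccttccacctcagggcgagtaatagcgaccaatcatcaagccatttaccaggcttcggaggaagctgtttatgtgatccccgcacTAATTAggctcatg
Gpx3: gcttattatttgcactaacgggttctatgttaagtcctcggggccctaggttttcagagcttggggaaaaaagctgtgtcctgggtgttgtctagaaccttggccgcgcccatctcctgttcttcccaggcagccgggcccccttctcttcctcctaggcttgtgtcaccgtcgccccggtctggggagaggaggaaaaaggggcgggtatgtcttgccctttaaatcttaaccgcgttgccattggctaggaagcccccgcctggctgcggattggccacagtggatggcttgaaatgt
Both strands were searched for AGGTGT, the core of a T-box half-site, and for TAATTA, which reads the same on both strands. Neither window held AGGTGT, and Emx2 held TAATTA. Of 32851 windows of this length, 13.7% held AGGTGT and 5.29% held TAATTA. RefSeq windows matched 27 of the 42 genes singled out here and in the larger set below, with 37 starts, of which 2 held AGGTGT and 4 held TAATTA. A match is letters only and says nothing of binding.

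Other transcripts around Emx2 fell with it. Emx2os (ENSMUSG00000087095; chromosome 19, 59425104 to 59458635, minus strand), an antisense RNA that overlaps the start of Emx2 by 264 bases, had 263 and 562 UMIs in the controls and 2 and 4 in the nulls. Whether counting used the strand is not given in the sources used here, so reads in the overlap cannot be assigned with certainty. E330013P04Rik, 679318 bases from the end of Emx2, a transcript named only by a clone, reached 7.40 and 8.50 CPM in the controls and 0.280 and 0.470 CPM in the nulls. Of the 11 genes tested within 1 Mb of Emx2, these 3 passed the test. The other 8 did not, with log2 differences from -1.75 (Gm17203) to 0.69 (Eno4) and adjusted p of 0.292 (Rab11fip2) or more in edgeR.

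The lowest adjusted p in edgeR, 0.000328, belonged to 3110099E03Rik (ENSMUSG00000085582; chromosome 2, 115493513 to 115527744, minus strand), a long transcript of no known role 335320 bases from Meis2. It reached 40.7 and 50.3 CPM in the controls and 0.307 and 0.313 CPM in the nulls, a log2 difference of -7.19 (SE 0.30). Meis2, a homeobox partner of Hox proteins, had 459 and 682 CPM in the controls and 389.8 and 454 CPM in the nulls with an adjusted p of 0.537. 3110099E03Rik was the 1 called gene of 6 tested within 1 Mb. Both Emx2 and 3110099E03Rik passed the threshold under all 23 alternative settings.

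Secreted and surface proteins made up the next group. Enpp2 (ENSMUSG00000022425; chromosome 15, 54838901 to 54952892, minus strand), the enzyme autotaxin that makes the signalling lipid lysophosphatidic acid, fell from 28.4 and 24.8 CPM in the controls to 4.51 and 4.72 CPM in the nulls. Smoc1 (ENSMUSG00000021136; chromosome 12, 81026808 to 81186414, plus strand), a secreted matrix protein known to modulate BMP signalling, fell from 14.6 and 16.9 CPM to 1.24 and 1.95 CPM. Pcdh19 (ENSMUSG00000051323; chromosome X, 133582860 to 133688987, minus strand), an X-linked protocadherin of cell adhesion, fell from 17.7 and 17.7 CPM to 3.64 and 2.60 CPM. In each of the 3 genes the null libraries were close to each other and the groups far apart. The log2 differences were -2.53 (SE 0.23) for Enpp2, -3.32 (SE 0.31) for Smoc1 and -2.50 (SE 0.26) for Pcdh19, with adjusted p of 0.0181, 0.0186 and 0.0350 (edgeR). In neural-depleted cells they were -2.63, -4.18 and -2.67, the last with an adjusted p of 0.0916, which misses the threshold.

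Gpx3 (ENSMUSG00000018339; chromosome 11, 54902453 to 54910377, plus strand), a secreted glutathione peroxidase that removes peroxides, was the single called gene that rose, from 15.4 and 13.8 CPM in the controls to 51.4 and 63.4 CPM in the nulls. The log2 difference was 1.97 (SE 0.23) with an adjusted p of 0.0491 (edgeR), and 1.99 with an adjusted p of 0.0457 in neural-depleted cells. It was detected after thinning in 6.60% and 6.35% of the control cells and 23.2% and 29.0% of the null cells. After the same thinning neural cells gave 8.70%, 11.8%, 25.4% and 23.4%, in the order control 1, control 2, null 1 and null 2. Without thinning the shares were 25.3%, 18.7%, 64.0% and 72.3% in mesenchyme and 25.9%, 24.4%, 57.3% and 51.5% in neural cells, so the nulls were higher in both kinds of cell. The call was near the threshold and was lost with DESeq2 size factors, which gave 0 genes higher, while the log2 difference stayed between 1.66 and 2.21 over all settings.

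The remaining called genes were low transcripts. 2410018L13Rik (ENSMUSG00000073164; chromosome 12, 22953997 to 23010284, minus strand) fell from 9.90 and 9.04 CPM to 0.920 and 0.895 CPM. In neural cells it had 4.80 and 4.62 CPM in the controls and 0.617 and 0.946 CPM in the nulls, so it was lower in both kinds of null cell. 4930512H18Rik (ENSMUSG00000086866; chromosome 8, 61849006 to 61922834, plus strand) fell from 2.47 and 1.98 CPM to 0.173 and 0.134 CPM. Both are named by clones alone. Trim5 (ENSMUSG00000060441; chromosome 7, 104263386 to 104288094, minus strand) had 151 and 136 UMIs in the controls and 1 and 1 in the nulls, a ratio of 0.0119 with a counting interval of 0.00143 to 0.0432. Trim5 belongs to a cluster of near-identical antiviral genes that differ between mouse strains, so its counts are uncertain. In neural-depleted cells 4930512H18Rik and Trim5 missed the threshold, each with an adjusted p of 0.0647 (edgeR), and over 22 alternative settings they passed it in 11 and 14.

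**Figure D2:**
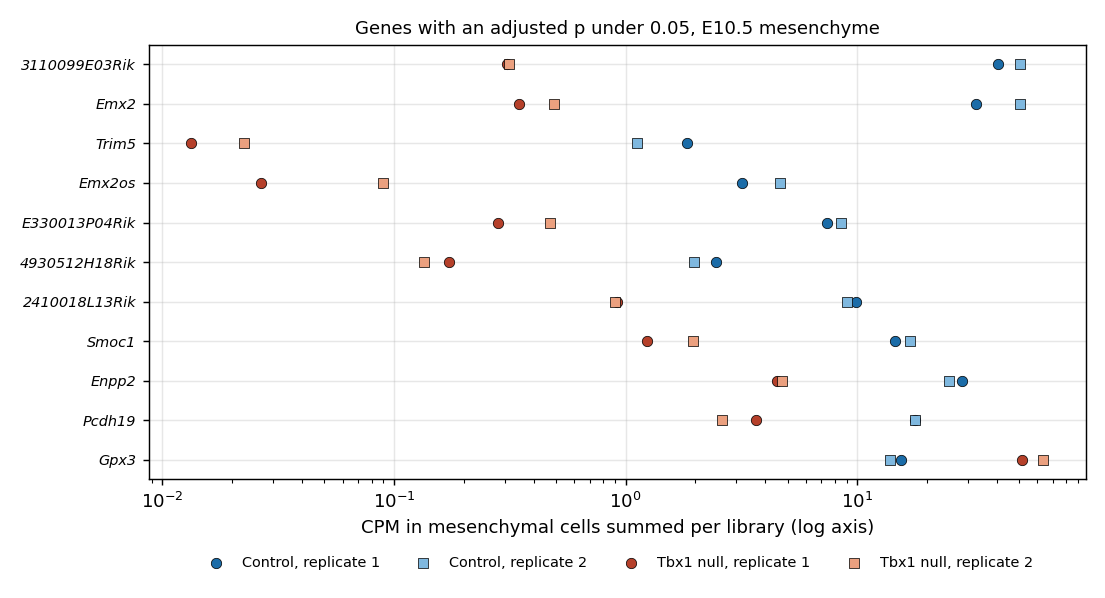
Levels of the 11 called genes in each library (CPM on a log axis, each point a library). Null points lie left of control points in 10 genes, by about 2 decades of the axis for Emx2 and 3110099E03Rik, and right of them for Gpx3, where they reach 51.4 and 63.4 CPM.

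Cells with a UMI of a Hox group 3 gene, a mark of the third and more caudal arches, and cells without were summed apart. A cell without such a UMI need not be rostral, since the share of cells with one grew with depth. The log2 differences of all 11 genes had the same sign in both, and 3 of the 11 passed the test in the former and 7 in the latter. Emx2 fell by 5.29 on the log2 scale in the former and by 7.41 in the latter, with adjusted p of 0.00605 and 0.000737 (edgeR). Smoc1 differed more between them, with log2 differences of -1.84 (adjusted p = 0.284 in edgeR) and -4.22 (0.00323), and the test of that difference gave 2.23 (SE 0.27) with an adjusted p of 0.0104 (edgeR). In neural-depleted cells it was 1.43 with an adjusted p of 0.191 (edgeR), so the call was lost there. In control cells without Hox group 3 UMIs Smoc1 reached 21.0 and 21.7 CPM, against 6.31 and 6.04 CPM in those with them.

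A larger set was taken by size, with a rule chosen after the values were seen and therefore with no test: a mean of at least 10 CPM, and at least 2-fold between the nearest control and null libraries both in all chosen cells and in neural-depleted cells. It held 36 of 7965 genes at that level (0.452%), 25 lower and 11 higher in null mesenchyme. Among them were genes of the ventral arch, of caudal position and of the dorsal neural tube, signalling components, and histone and ribosomal RNA-like transcripts. Others fell outside these groups.

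Ventral arch factors stood lower. Gsc, a homeobox factor of the ventral arches needed for jaw and ear structures, reached 69.4 and 73.2 CPM in the controls and 9.98 and 18.0 CPM in the nulls, a log2 difference of -2.36 (SE 0.31) with an adjusted p of 0.0741 (edgeR). It was found after thinning in 18.6% and 19.6% of the control cells and 4.38% and 8.69% of the null cells. After the same thinning neural cells gave 0.315%, 0.175%, 0.0446% and 0.186%, in the order control 1, control 2, null 1 and null 2. Without thinning the shares were 31.3%, 30.1%, 12.1% and 16.9% in mesenchyme and 0.866%, 0.171%, 0.265% and 0.611% in neural cells. Dlx3, a distal-less homeobox factor, had 24.3 and 26.7 CPM in the controls and 6.36 and 0.425 CPM in the nulls. Dlx6os1, the antisense RNA of the Dlx5 and Dlx6 locus, had 37.1 and 41.8 CPM in the controls and 8.37 and 0.381 CPM in the nulls. The null libraries differed widely from each other in both Dlx transcripts, with null replicate 2 near 0, and adjusted p were 0.323 and 0.326.

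Hoxb3, Hoxd3 and Six2, grouped here as genes of caudal position, stood higher. The list of proximal and caudal arch factors lay on both sides, with 7 above and 6 below. Hoxb3, expressed from the third arch backwards, had 31.6 and 26.4 CPM in the controls and 63.3 and 67.1 CPM in the nulls. Hoxd3, of the same group, had 13.8 and 9.37 CPM in the controls and 32.8 and 39.9 CPM in the nulls. Six2, a homeobox factor of mesenchymal progenitors, had 8.48 and 7.46 CPM in the controls and 18.3 and 28.7 CPM in the nulls. The libraries of the genotypes did not overlap in these 3 genes, but none passed the test, with adjusted p of 0.193, 0.145 and 0.185 in edgeR. Neural cells held Hoxb3 and Hoxd3 at means of 97.5 and 67.8 CPM, above the mesenchyme, and Six2 at 0.397 CPM, below the mesenchyme. In neural-depleted cells Hoxb3 stood at 22.4 and 22.7 against 57.9 and 52.0 CPM and Hoxd3 at 7.90 and 7.55 against 21.1 and 29.3 CPM, so the differences were about as large.

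Genes of the dorsal neural tube also stood higher, together with the neural markers. Wnt1, Zic1 and Atoh1 pattern that tissue, and their mean levels in neural cells were 81.2, 247 and 104 CPM. In the chosen cells Zic1 had 30.6 and 7.96 CPM in the controls and 61.7 and 80.3 CPM in the nulls. In neural-depleted cells it had 3.54 and 1.98 CPM in the controls and 8.97 and 15.5 CPM in the nulls. The part of neural RNA in these 3 genes was not tested further.

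Signalling components were found on both sides, and other genes of the set are given after them. Bmpr1b, a type I BMP receptor, had 16.5 and 18.2 CPM in the controls and 6.36 and 7.07 CPM in the nulls. Mapk14, the p38 alpha kinase, had 19.7 and 18.7 CPM in the controls and 6.72 and 6.67 CPM in the nulls. Dkk2, a secreted modulator of Wnt signalling, had 15.9 and 16.8 CPM in the controls and 7.50 and 5.64 CPM in the nulls. All 3 had little spread within a genotype and levels far apart between them, yet adjusted p in edgeR were 0.148, 0.103 and 0.193. Mapk14 was also lower in null neural cells, at 15.8 and 14.4 CPM in the controls and 5.65 and 6.56 CPM in the nulls. Bmpr1b was lower there as well, at 15.9 and 10.7 CPM in the controls and 7.36 and 9.73 CPM in the nulls. Dkk2 was low in neural cells, with a mean of 2.64 CPM, and its genotypes overlapped there. Wfikkn1, a secreted binder of growth and differentiation factors, had 2.59 and 2.85 CPM in the controls and 33.2 and 12.4 CPM in the nulls, with an adjusted p of 0.109. Kcnh2, a cardiac potassium channel gene, had 8.14 and 6.91 CPM in the controls and 17.4 and 21.6 CPM in the nulls. In neural cells its levels were above the mesenchyme, at 38.0 and 29.3 CPM in the controls and 60.4 and 57.8 CPM in the nulls. The part of neural RNA in its difference was not tested. Mid1, an X-linked ubiquitin ligase, had 5.70 and 10.3 CPM in the controls and 23.3 and 29.3 CPM in the nulls. In neural cells Mid1 had 12.3 and 15.3 CPM in the controls and 25.7 and 40.4 CPM in the nulls. At E9.5 its log2 ratio of null to control was 2.03, from 1 library each. Among the other lower genes were Kctd12, Lypd1, Prr16, Bok, a member of the Bcl2 family, and Cwc22, a splicing factor whose copies vary in number between mouse strains. Their log2 differences ran from -2.38 (Lypd1) to -1.35 (Cwc22) and their adjusted p from 0.0628 (Kctd12) to 0.185 (Prr16) in edgeR. Cwc22 was lower in null neural cells as well, at 56.3 and 67.1 CPM in the controls and 27.0 and 25.5 CPM in the nulls.

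The set also held histone and ribosomal RNA-like transcripts. Replication-dependent histone genes, whose mRNAs end in a stem-loop, were lower in both null libraries than in both controls for 43 of 62 tested genes and higher for 0, where 24.9% and 22.0% of all genes tested were. Their summed level was 3359 and 8144 CPM in the controls and 913 and 3236 CPM in the nulls. Null replicate 2 lay just below control replicate 1, a gap smaller than the spread within either genotype, and 0 of these genes passed the test (edgeR). Gm42418, AY036118 and Lars2, the first pair known to collect ribosomal RNA reads, summed to 3049.8 and 5503 CPM against 205 and 482 CPM. At E9.5 their median log2 ratio of null to control was 1.55, the other direction. The capture of such RNA differs between library preparations, and its part in these values was not tested. In neural cells Gm42418, AY036118 and Lars2 were lower in the nulls as well, Gm42418 at 3858 and 7358 CPM against 213 and 605 CPM. The histone gene Hist1h1e was also lower there, at 538 and 993 CPM in the controls and 68.3 and 166 CPM in the nulls.

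**Figure D3:**
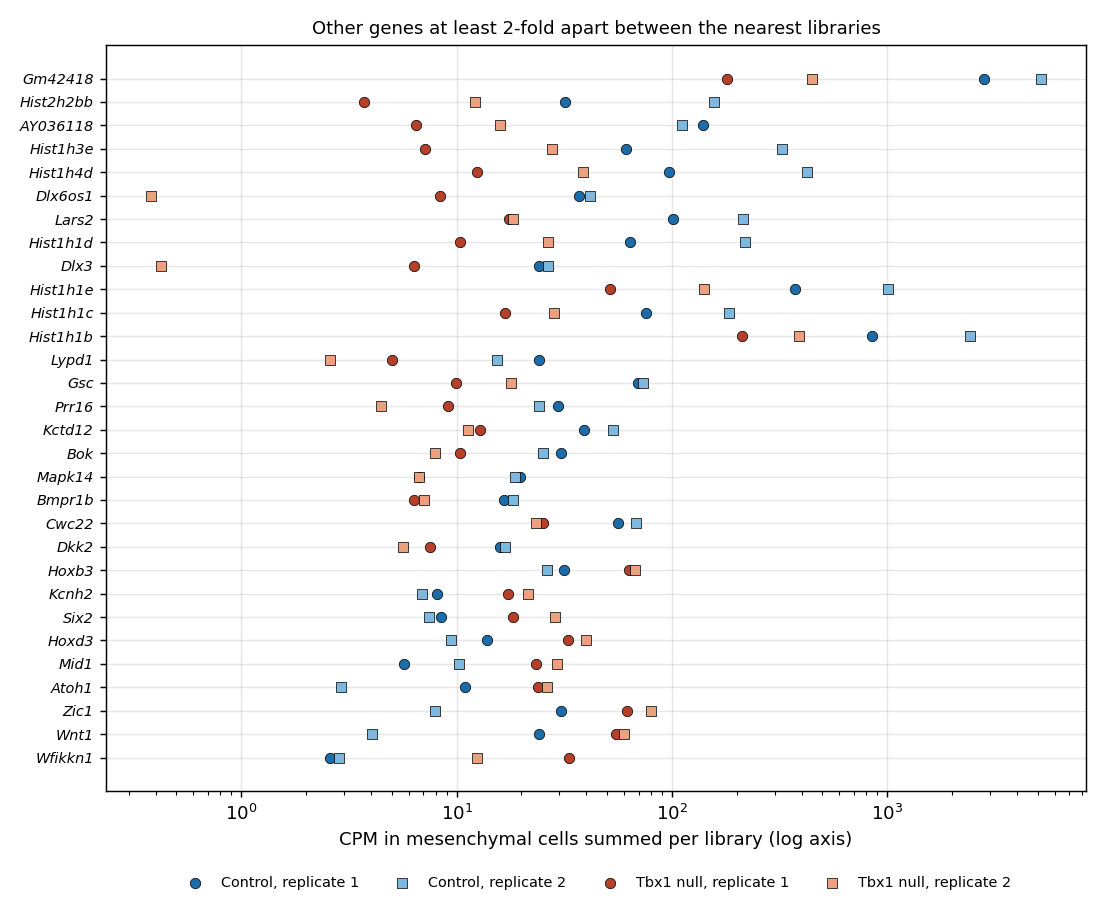
Levels of 30 genes of the larger set that were not called, by library (CPM on a log axis, each point a library). Lower genes stand in the upper rows and higher genes in the lower rows. Circles and squares of a genotype lie apart for the histone genes, Dlx3 and Dlx6os1, and close together for Mapk14 and Hoxb3.

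Gene lists by role were read against all genes: both null libraries lay above both controls in 22.0% of genes tested and below them in 24.9%. The members named are the 3 with the highest level in a list, and others chosen after their values were seen. Apart from Emx2, which is on the list of Dlx and ventral arch factors, 0 members of the lists were called in edgeR, so the counts below are of genes without overlap between genotypes, not of called genes.

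Hox genes of groups 1 to 3 stood higher: 6 of 8 had both null libraries above both controls and 0 below, with a median log2 difference of 1.28. The members that overlapped were the group 2 genes, which are on from the second arch backwards. Hoxa2 had 85.4 and 83.0 CPM in the controls and 96.5 and 68.6 CPM in the nulls, and Hoxb2 had 72.2 and 50.8 CPM in the controls and 121 and 62.4 CPM in the nulls. Hoxa3, of the third arch, had 21.5 and 17.1 CPM in the controls and 41.6 and 35.2 CPM in the nulls. Hoxb1, a gene of the hindbrain, was among the lowest of the list, at 2.13 and 0.420 CPM in the controls and 4.95 and 6.85 CPM in the nulls. The counts were the same in neural-depleted cells, with a median of 1.24. Of 7 genes of groups 4 and 5, 2 lay above and 0 below, with a median of 0.84. That median rested on null replicate 2, without which it was 0.21, and was 1.37 without null replicate 1 and 1.29 without control replicate 1. In neural-depleted cells 1 lay above, with a median of 0.31. Hoxb4 had 27.2 and 22.4 CPM in the controls and 23.9 and 62.9 CPM in the nulls, and its mean in neural cells was 131 CPM.

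The ventral and distal factors stood lower: 13 of 19, Emx2 and Gsc included, lay below in both null libraries and 1, Alx1, above, with a median log2 difference of -0.61. The median was -0.76 in cells with Hox group 3 UMIs and -0.15 in cells without. Barx1, a homeobox factor of arch mesenchyme, had 217 and 167 CPM in the controls and 108 and 13.4 CPM in the nulls. Hand2, the basic helix-loop-helix factor of the ventral arch, had 94.5 and 115 CPM in the controls and 80.2 and 68.0 CPM in the nulls, with a log2 difference of 0.0066 in cells without Hox group 3 UMIs. Dlx2, expressed along the whole arch, had 72.1 and 62.4 CPM in the controls and 107 and 33.6 CPM in the nulls, and its genotypes overlapped. The Dlx genes of the more ventral domains were lower. Dlx5 had 76.5 and 64.4 CPM in the controls and 36.0 and 2.73 CPM in the nulls. Dlx6 had 37.2 and 34.9 CPM in the controls and 14.6 and 2.10 CPM in the nulls. Dlx4 had 9.63 and 9.03 CPM in the controls and 1.08 and 0.0448 CPM in the nulls. Null replicate 2 lay far below null replicate 1 in all of these, and Barx1 showed the same. In neural-depleted cells 9 members lay below, with a median of -0.36, and the median in all cells was -1.21 without null replicate 1 and -0.76 without null replicate 2.

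Of 17 proximal and caudal arch factors, 7 lay above and 6 below. Tbx2 and Tbx3, T-box repressors of the arch crest, were among the former. Tbx2 had 47.7 and 33.2 CPM in the controls and 76.3 and 52.1 CPM in the nulls. Tbx3 had 18.2 and 26.2 CPM in the controls and 35.5 and 31.6 CPM in the nulls. Eya2, a phosphatase and cofactor of transcription, had 2.09 and 1.65 CPM in the controls and 5.25 and 14.5 CPM in the nulls. Its mean in neural cells was 28.8 CPM, above the mesenchyme, and the part of neural RNA in its difference was not tested. Among the abundant members, Meis2 lay below, as given above, and Zfhx3, a large zinc finger and homeobox factor, had 159 and 195 CPM in the controls and 62.7 and 145 CPM in the nulls. None of these passed the test, with adjusted p in edgeR from 0.221 (Eya2) to 0.537 (Meis2).

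**Figure D4:**
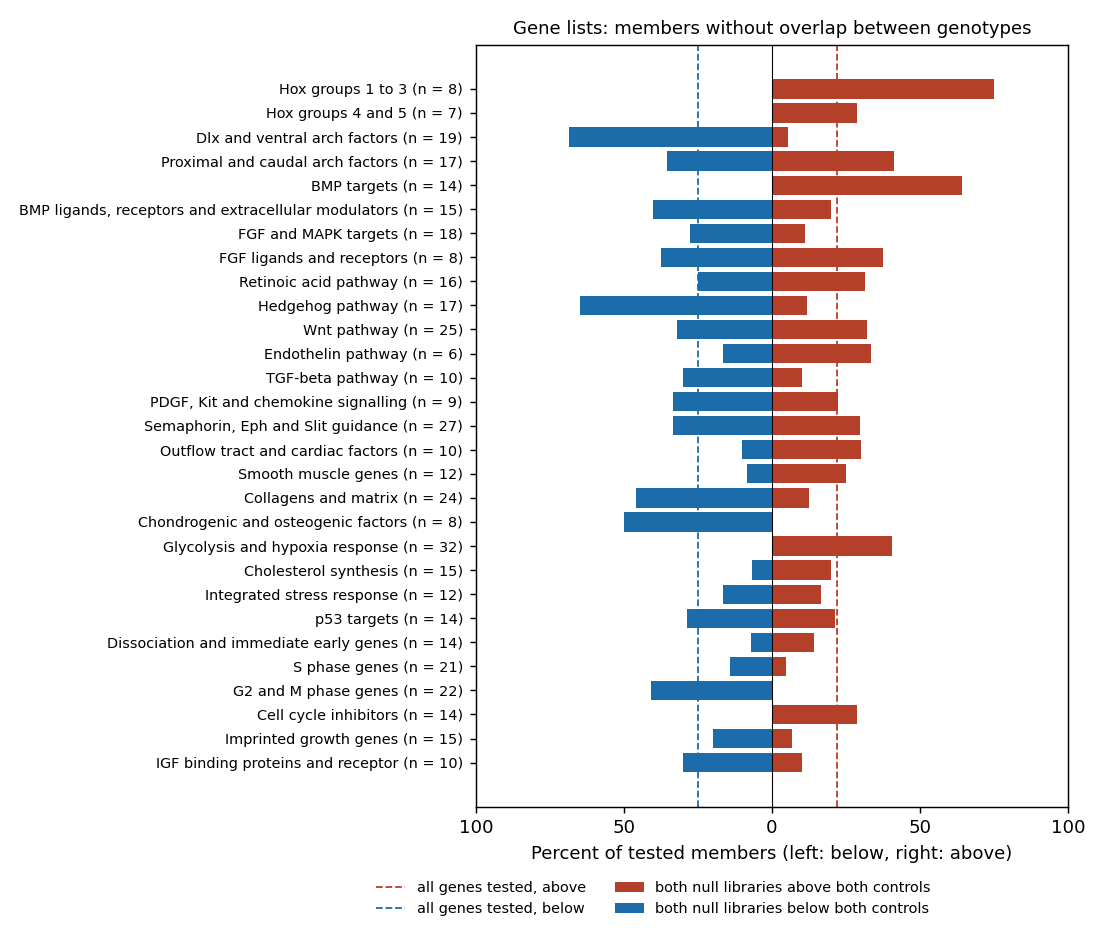
Non-overlapping members of 29 gene lists. Bars to the right give the percent of tested members with both null libraries above both controls, bars to the left the percent with both below, and dashed lines the same over all 15976 genes (22.0% and 24.9%). Hox groups 1 to 3 and BMP targets reach farthest right, and ventral arch factors and the Hedgehog pathway farthest left.

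BMP signalling works through receptors at the membrane and SMAD proteins that switch on Id and Msx genes. Of 14 targets, 9 lay above in both null libraries and 0 below, with a median log2 difference of 0.65. The counts were the same in neural-depleted cells, with a median of 0.61. Id3, an inhibitor of helix-loop-helix factors, had 762 and 527 CPM in the controls and 1244 and 979 CPM in the nulls. Id1 had 425 and 331 CPM in the controls and 751 and 428 CPM in the nulls, and Id2 had 296 and 304 CPM in the controls and 451 and 394 CPM in the nulls. Adjusted p were 0.355, 0.455 and 0.434 in edgeR, so the single genes did not pass. Msx1, a homeobox factor of the distal arch, had 124 and 98.7 CPM in the controls and 237 and 189 CPM in the nulls. Msx2 had 31.7 and 23.6 CPM in the controls and 88.9 and 32.8 CPM in the nulls, with null replicate 1 far above the rest. Neural cells held Id3 and Msx1 at means of 1125 and 196 CPM. The 15 ligands, receptors and extracellular modulators had 3 above and 6 below. Fstl1, Bmpr1a and Bmpr2, the most abundant, gave log2 differences of 0.053, -0.39 and -0.33, against -1.37 for Bmpr1b.

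FGF and MAPK targets were near the background, with 2 of 18 above and 5 below and a median of -0.20. The median was -0.54 without null replicate 1, -0.034 without null replicate 2 and -0.062 in neural-depleted cells. Ccnd1, a cyclin of the start of the cell cycle, had 206 and 241 CPM in the controls and 159 and 157 CPM in the nulls. Il17rd, a membrane inhibitor that FGF signalling induces, had 35.6 and 42.2 CPM in the controls and 23.3 and 17.1 CPM in the nulls. Phlda1 and Spred1 gave log2 differences of 0.42 and -0.33.

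Hedgehog genes lay below more often than above: 11 of 17 below and 2 above, with a median of -0.26. In neural-depleted cells 7 lay below and 3 above, with a smaller median of -0.17. Ptch1, the receptor and itself a target, had 75.2 and 81.1 CPM in the controls and 40.0 and 56.9 CPM in the nulls. Foxd1, a forkhead target in the arches, had 40.2 and 32.4 CPM in the controls and 15.3 and 17.4 CPM in the nulls. Gas1, a co-receptor, had 214 and 223 CPM in the controls and 192 and 186 CPM in the nulls, a small difference with no overlap. Smo, the transducer, overlapped at 92.1 and 84.6 CPM in the controls and 94.4 and 72.3 CPM in the nulls.

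Retinoic acid genes lay on both sides, with 5 of 16 above and 4 below. Crabp1, a binding protein of retinoic acid, had 399.9 and 553 CPM in the controls and 1009 and 923 CPM in the nulls, and its mean in neural cells was 2573 CPM. Crabp2, its relative, had 344 and 349.7 CPM in the controls and 579 and 418 CPM in the nulls, and a mean of 867 CPM in neural cells. Of Wnt genes 8 of 25 lay above and 8 below. Rspo1, a secreted enhancer of Wnt signalling, had 29.2 and 8.51 CPM in the controls and 66.9 and 46.8 CPM in the nulls, with a mean of 30.6 CPM in neural cells, and stood the other way in neural-depleted cells, at 6.87 and 4.15 against 3.73 and 5.48 CPM. Dkk2 lay below in both. Of endothelin genes 2 of 6 lay above and 1 below, of TGF-beta genes 1 of 10 above and 3 below, and of semaphorin, Eph and Slit genes 8 of 27 above and 9 below.

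Matrix and skeletal genes leaned lower in all chosen cells. Of 24 collagen and matrix genes 11 lay below and 3 above, but in neural-depleted cells the counts were 2 and 4. Col3a1, a fibrillar collagen, had 234 and 222 CPM in the controls and 151 and 192 CPM in the nulls. Vcan, the proteoglycan versican, had 167 and 243 CPM in the controls and 66.9 and 133 CPM in the nulls. Of 8 chondrogenic and osteogenic factors 4 lay below and 0 above, with a median of -0.56, of -0.41 in neural-depleted cells and of -0.28 without null replicate 1. Sox9, the factor that starts cartilage, had 108 and 128 CPM in the controls and 67.7 and 93.3 CPM in the nulls. Its partners Sox5 and Sox6 had log2 differences of -0.64 and -0.58. None of the 3 passed, with adjusted p of 0.414, 0.339 and 0.469 in edgeR.

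Genes of glycolysis and of mitosis were also counted. Of 32 genes of glycolysis and the hypoxia response 13 lay above in both null libraries and 0 below, with a median of 0.15. The counts were the same in neural-depleted cells, with a median of 0.24, and without null replicate 2 the median was 0.30. Pkm, pyruvate kinase, had 1129.9 and 948 CPM in the controls and 1717 and 1269 CPM in the nulls. Ldha, lactate dehydrogenase, had 855 and 918 CPM in the controls and 1930.4 and 960.2 CPM in the nulls, with null replicate 2 close to the controls. Gapdh overlapped, at 3194 and 3210.3 CPM in the controls and 3957 and 2951 CPM in the nulls. Of 22 genes of G2 and M phase 9 lay below and 0 above. Top2a, which untangles DNA at mitosis, had 454 and 617 CPM in the controls and 409 and 426 CPM in the nulls, while Ube2c and Birc5 overlapped. The G2 and M median of -0.26 rested on null replicate 2, since it was -0.0051 without that library, -0.40 without null replicate 1 and -0.15 without control replicate 2.

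Outflow tract factors and smooth muscle genes, which crest cells turn on around the arch arteries, separated the genotypes in few members over all cells. Of 10 cardiac factors 3 lay above and 1 below. Foxp1, a forkhead repressor, had 120.1 and 147 CPM in the controls and 72.0 and 113 CPM in the nulls. Isl1, a factor of heart progenitors, had 22.4 and 22.0 CPM in the controls and 17.2 and 44.2 CPM in the nulls, high in null replicate 2 alone. Of 12 smooth muscle genes 3 lay above and 1 below. Cnn2, a calponin, had 117 and 111 CPM in the controls and 139 and 162 CPM in the nulls. Tpm1, a tropomyosin, had 325 and 372 CPM in the controls and 214 and 340.2 CPM in the nulls, and Tagln, an actin-binding protein, had 96.3 and 89.0 CPM in the controls and 57.5 and 98.2 CPM in the nulls, both with overlap.

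The Hox group 3 cells made up a larger share of null mesenchyme. After thinning, a UMI of Hoxa3, Hoxb3 or Hoxd3 was found in 20.2% (18.8 to 21.6) and 15.9% (15.1 to 16.8) of control cells and in 39.2% (37.4 to 41.0) and 47.2% (44.7 to 49.7) of null cells, with 95% Clopper-Pearson intervals in brackets. These intervals cover counting error within a library and not the spread between pools, and with 2 pools a genotype the smallest two-sided permutation p is 0.333. Both null libraries lay above both controls, and the order was the same without thinning in neural-depleted cells, at 31.9% and 26.1% against 51.6% and 70.9%. Thinning left out 118, 79, 20 and 6 cells. Neural cells express these Hox genes, Hoxb3 in 34.3%, 36.3%, 34.0% and 45.3% of them after the same thinning and in 66.5%, 57.0%, 68.8% and 77.1% without it, so a share of Hox group 3 cells can hold neural RNA.

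The genotype effect differed between cells with and without Hox group 3 UMIs for 105 of 15473 genes (0.679%), by an interaction term of edgeR that sets the 2 sums of each library against each other. Cells were divided by their unthinned UMIs of Hoxa3, Hoxb3 and Hoxd3, which differ with genotype and with depth: 39.2% and 28.6% of control and 61.0% and 78.0% of null cells held one. Each side can therefore hold other cells in each genotype, and a genotype effect that differs between the sides cannot be told apart from a change in which cells stand on each side. Setting at least 2 Hox group 3 UMIs against none gave 112 genes. For 75 genes the effect was lower in Hox group 3 cells and for 30 it was higher. Among the former were smooth muscle genes: Acta2, Tagln, Cnn1, Myl9, Actg2 and Tpm1 were called, 6 of 12 on the list, and 0 in the other direction. Neural markers moved the same way: 3 of 10 progenitor markers (Hes5, Olig3 and Fabp7) and 2 of 10 neuron markers (Elavl3 and Neurod1) were called with a lower effect, and 1 and 0 in neural-depleted cells. Neural-depleted cells gave 302 calls, 7 of them smooth muscle genes with a lower effect, and 74 of the 105 were called again, all in the same direction. Null replicate 2 had only 289 such cells, 70.9% of them with Hox group 3 UMIs, so its side without them was small. These cells are also part of those already tested, so the repeat is not independent.

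Tagln gave the largest of these differences among called genes with a mean of at least 10 CPM. In cells with Hox group 3 UMIs it stood at 130.1 and 128 CPM in the control and 41.0 and 67.0 CPM in the null libraries, and in cells without at 68.9 and 69.1 CPM and 84.6 and 235 CPM in the same order. In Hox group 3 cells both nulls lay below both controls, and in the others both lay above. The difference of the 2 effects was -2.29 (SE 0.18) on the log2 scale, with an adjusted p of 0.00119, and -2.29 in neural-depleted cells. Acta2, smooth muscle actin, stood at 70.4 and 42.3 CPM in the control and 21.5 and 28.1 CPM in the null libraries in Hox group 3 cells and 63.0 and 35.0 CPM and 62.1 and 159 CPM in the others, an interaction of -2.18 (SE 0.23) with an adjusted p of 0.00548. Neither effect passed the test within Hox group 3 cells alone, with adjusted p of 0.368 for Tagln and 0.379 for Acta2 in edgeR, nor within the others alone, with 0.366 and 0.393. Rgs5, a G-protein regulator of pericytes, and Myl9, a myosin light chain, gave interactions of -1.72 (SE 0.15) and -1.48 (SE 0.11) with adjusted p of 0.00164 and 0.00118. In neural cells the mean levels of Tagln and Acta2 were 5.62 and 0.572 CPM.

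Tbx3 showed another form of the pattern. In control libraries it was 32.5 and 57.0 CPM in Hox group 3 cells against 6.64 and 11.3 CPM in the rest, and in null libraries 42.1 and 35.1 against 24.2 and 20.3 CPM. The null cells without Hox group 3 UMIs thus held more than the matching control cells, and the interaction was -1.47 (SE 0.088) with an adjusted p of 0.000345. Neither effect on Tbx3 passed alone, with adjusted p of 0.803 in Hox group 3 cells and 0.255 in the others (edgeR). Among imprinted growth genes, Igf2, H19, Dlk1, Meg3, Peg3 and Phlda2, 6 of 15, had a lower effect in Hox group 3 cells, and 0 a higher one. Igf2, a fetal growth factor, stood at 168 and 205 CPM in the control and 72.1 and 106 CPM in the null libraries in Hox group 3 cells and at 194 and 208 CPM and 132 and 202 CPM in the others, an interaction of -0.74 (SE 0.062) with an adjusted p of 0.00134.

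In the other direction, 5 genes are named, those with the largest difference among called genes with a mean of at least 10 CPM, no overlap and no place on the Y chromosome. Lower genes such as Smoc1 and Aldh1a2, which makes retinoic acid, had larger ones, 3.02 for Aldh1a2. The difference of effects was 1.31 (SE 0.16) for Cntfr, a cytokine receptor subunit, and 1.04 (SE 0.14) for Dclk1, a microtubule kinase. It was 0.92 (SE 0.16) for Hs6st1, a heparan sulfate sulfotransferase, and 0.82 (SE 0.13) for Axin2, a target and brake of Wnt signalling. Slco3a1, a transporter, gave 0.79 (SE 0.13). Adjusted p ran from 0.0104 (Cntfr) to 0.0383 (Hs6st1) in edgeR. In Hox group 3 cells Dclk1 stood at 27.9 and 31.8 CPM in the control and 13.2 and 22.7 CPM in the null libraries, and in the others at 40.7 and 57.1 CPM and 11.5 and 17.0 CPM in the same order, so the gap between genotypes was wider in the latter. Axin2 and Hs6st1 did not pass in neural-depleted cells, with differences of 0.22 and 0.35 and adjusted p of 0.598 and 0.504 (edgeR).

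**Figure D5:**
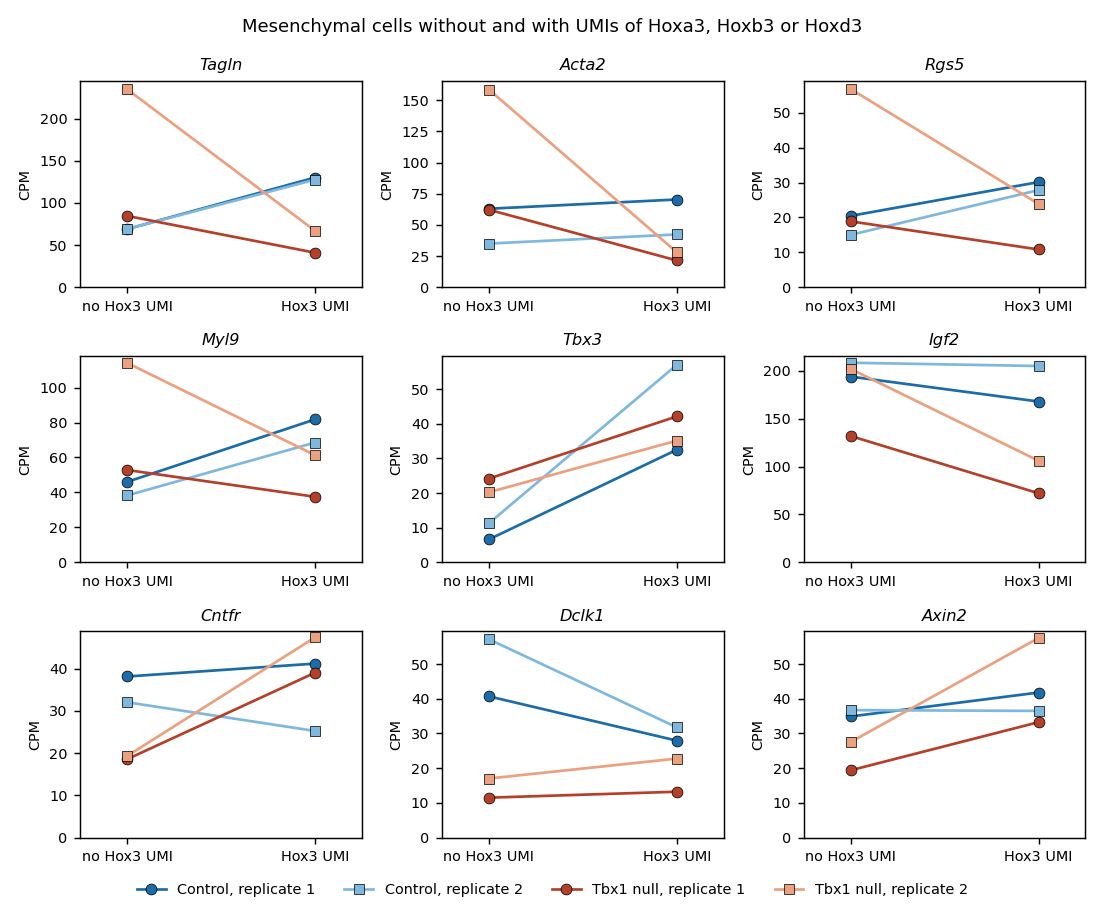
Levels of 9 genes in mesenchymal cells without and with UMIs of Hoxa3, Hoxb3 or Hoxd3, by library (CPM from 0, lines join the cells of a library). Control lines rise and null lines fall for Tagln, from 68.9 to 130.1 CPM in control replicate 1 and from 235 to 67.0 CPM in null replicate 2.

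At E9.5 there was 1 library of each genotype, dissected with the first arch left in and made with kit version 3.1 for the control and 3 for the null, so values are set side by side with no test. Of the 11 called genes, 3 reached 5 CPM in either E9.5 library. Gpx3 stood at 14.1 CPM in the control and 15.1 CPM in the null library. Pcdh19 stood at 6.26 CPM in the control and 6.14 CPM in the null library. 2410018L13Rik stood at 5.20 CPM in the control and 5.80 CPM in the null library. None of the 3 was 2-fold apart there. Emx2 was all but absent from both libraries, at 0.0394 CPM in the control and 0.0346 CPM in the null library, and Gsc was low, at 1.18 CPM in the control and 1.58 CPM in the null library. In the controls, 9 of the 10 called genes that fell were more than 2-fold higher in both E10.5 libraries than in the E9.5 library, as were 19 of the 25 lower genes of the larger set and 14.2% of all 7965 genes with at least 10 CPM. These genes were chosen for high levels in E10.5 controls, so the share is a description. Stage and dissection differ along with these values, and their part was not tested.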

How the data were processed

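Per the labels and the study's methods, EGFP-positive cells were sorted from pooled embryos, profiled with 10x 3' kits and aligned to mm10 with Cell Ranger 6.0.1. The authors deposited raw UMI counts per gene and barcode. UMIs of the chosen cells were summed per library and tested with edgeR 4.0.16 (TMM, filterByExpr, glmQLFit, glmQLFTest; R 4.3.3), 2 control against 2 null libraries, with Benjamini-Hochberg adjustment over all genes tested, and called at an adjusted p under 0.05. CPM use TMM-scaled totals, except those of neural cells and of all kept cells, which use unscaled totals. An SE is the log2 difference divided by the root of F. The interaction used sums of cells with and without Hox group 3 UMIs and the library as a block. Shares used cells thinned to 5000 UMIs. E9.5 ratios add 0.5 UMIs. Doublets were left in, with the most UMI-rich cells removed in an alternative. Each test was tried on simulated counts. DESeq2 1.42.0, other scalings, filters, gates and left-out libraries were alternatives. Genes are named by size among called genes and by level within 41 lists of 530 genes (2 symbols, shared by several identifiers, were not matched), and otherwise after their values were seen. Members and lists were chosen with earlier results of these data known. A few genes that enter the counts are not reported here by name.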

Additional observations from a re-analysis of the deposited data

Results flagged for a closer look

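For 10 genes the genotype effect differed between mesenchymal cells with and without Hox group 3 UMIs, by an interaction test in edgeR with adjusted p from 0.000345 (Tbx3) to 0.0383 (Hs6st1). The effect was lower in Hox group 3 cells for Tagln (-2.29), Acta2 (-2.18), Rgs5 (-1.72), Myl9 (-1.48) and Tbx3 (-1.47), as differences of log2 effects. It was higher there for Slco3a1 (0.79), Axin2 (0.82), Hs6st1 (0.92), Dclk1 (1.04) and Cntfr (1.31). Neural cells held Cntfr, Axin2, Dclk1 and Hs6st1 at means of 124, 83.8, 44.1 and 36.3 CPM, and Rgs5 and Tbx3 at 0.532 and 4.10 CPM. In null cells without Hox group 3 UMIs, Tagln was at 235 CPM in null replicate 2 and 84.6 CPM in null replicate 1, and Acta2 at 159 and 62.1 CPM, the latter below control replicate 1 at 63.0 CPM. Within those cells alone the effect missed the threshold, with adjusted p of 0.366 for Tagln, 0.393 for Acta2, 0.422 for Rgs5, 0.370 for Myl9 and 0.255 for Tbx3 in edgeR. Without null replicate 2 the Tagln interaction was -1.97. In neural-depleted cells Axin2 gave 0.22 and Hs6st1 0.35, with adjusted p of 0.598 and 0.504 (edgeR). Slco3a1 missed the threshold without control replicate 1 (adjusted p = 0.0560 in edgeR) and without null replicate 1 (0.0599), and Hs6st1 without control replicate 2 (0.0940). The cells were divided by genes that differ with genotype, so these differences cannot be told apart from a change in which cells stand on each side.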

How the results depend on the processing

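The 11 called genes kept their direction under every setting that tested them, and Emx2 and 3110099E03Rik kept their call as well, while the number of calls moved widely and the cause was not tested. Counts are given as all calls, then higher and lower in nulls. DESeq2 size factors in edgeR gave 8 (0 and 8), upper quartile scaling 2 (0 and 2), DESeq2's Wald test 368 (236 and 132), no filter on low counts 862 (542 and 320) and a mean of at least 5 CPM 2 (0 and 2). A gate of 1 UMI gave 8 (0 and 8), a gate of 6 UMIs 18 (1 and 17), a cell filter of 2000 genes and 5% mitochondrial UMIs 12 (2 and 10), no cell with a UMI of other cell types 57 (11 and 46), cells with Hox group 3 UMIs 3 (0 and 3) and those without 10 (0 and 10). The setting without cells of other types left out 1518 of the 1594 chosen cells of null replicate 2. Leaving out 1 library gave 56 to 686 calls, 8 to 485 higher and 48 to 294 lower: 376 without control replicate 1, 56 without control replicate 2, 686 without null replicate 1 and 463 without null replicate 2, each with a lone library assumed to vary like the others. Neural-depleted cells, added after seeing the data, gave 10 (1 and 9), and with 1 library left out 2 (0 and 2, without control replicate 1), 11 (without control replicate 2), 650 (427 and 223, without null replicate 1) and 1179 (501 and 678, without null replicate 2). The replicate block gave 418 calls (228 and 190), with all 11 genes among them, but these libraries share only a number. The log2 difference of replicate 1 from replicate 2 in controls correlated with that in nulls at 0.195 (Pearson) over 9594 genes. The interaction gave 48 calls at a mean of at least 5 CPM, 302 in neural-depleted cells and 160 to 667 with a library left out: 234 without control replicate 1, 160 without control replicate 2, 667 without null replicate 1 and 498 without null replicate 2.

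Of 91 named genes without overlap, 12 values of 9 genes changed sign, and none was called. With a gate of 1 UMI Cnn2 was at -0.043 and Mef2c at -0.041. Without cells of other types Hoxc4 was at -0.12, Gas1 at 0.058 and Rspo1 at -0.58, and in neural-depleted cells Pdgfra was at 0.012 and Rspo1 at -0.31. In Hox group 3 cells Hoxc4 was at -0.066, Tbx3 at -0.21 and Mef2c at -0.20, and in the others Hand2 was at 0.0066 and Col9a1 at 0.060. Hox group 3 shares were 39.2, 28.6, 61.0 and 78.0% without thinning (control 1, control 2, null 1, null 2), 13.7, 11.1, 29.0 and 34.5% at 3000 UMIs, and 31.9, 26.1, 51.6 and 70.9% in neural-depleted cells without thinning. A gate of 1 UMI gave mesenchymal shares of 59.0 and 76.4% in the controls and 47.5 and 46.5% in the nulls. Null replicate 2 has the fewest cells and UMIs, so its low genes are the least certain.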

Other observations

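Ribosomal protein genes leaned lower in null mesenchyme: 50 of 77 had both null libraries below both controls and 2 above, with a median log2 difference of -0.28 and 0 called in edgeR. Of 13 mitochondrially encoded genes 7 lay below and 0 above, with a median of -0.49. At E9.5 the medians were -0.015 and 0.12. Of 15 genes of cholesterol synthesis 3 lay above and 1 below, and the median of 0.20 changed sign without null replicate 1 (-0.15). Among 14 cell cycle inhibitors 4 lay above and 0 below. Over all genes tested, both null libraries lay above both controls in 22.0% and below them in 24.9%. The cholesterol genes and inhibitors that lay above were near that share. The ribosomal and mitochondrial families were chosen after their values were seen, and no explanation was weighed.

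The other lists, read against 22.0% above and 24.9% below over all genes, had 4 members or fewer on either side. Of the genes tested, 3 of 8 FGF ligands and receptors lay above and 3 below. 2 of 9 PDGF, Kit and chemokine genes lay above and 3 below. 2 of 12 integrated stress response genes lay above and 2 below. 3 of 14 p53 targets lay above and 4 below. Likewise, 2 of 14 dissociation and immediate early genes lay above and 1 below. 1 of 21 S phase genes lay above and 3 below. 1 of 10 IGF binding proteins and receptor genes lay above and 3 below. 1 of 15 imprinted growth genes lay above and 3 below.

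Markers of other cell types that the sort could hold stood at low levels. The summed level of 7 markers of endothelium was 32.4, 36.9, 37.9 and 28.4 CPM (control 1, control 2, null 1, null 2). The summed level of 7 markers of epithelium was 38.7, 26.0, 40.7 and 53.6 CPM (control 1, control 2, null 1, null 2). The summed level of 8 markers of myocardium was 96.8, 16.7, 20.2 and 38.3 CPM (control 1, control 2, null 1, null 2). The summed level of 8 markers of glial crest was 43.5, 51.6, 42.5 and 59.5 CPM (control 1, control 2, null 1, null 2). Without any cell holding a UMI of 8 genes of other cell types, 10 of the 11 called genes were called again in edgeR. That setting left out 1803, 2662, 1685 and 1518 of the 3419, 7136, 2828 and 1594 chosen cells (control 1, control 2, null 1, null 2). Null replicate 2 thus kept few cells, which limits this repeat.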
